A study of Mus musculus with 12 samples.

Results

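The genes Fos, Fosb, Fosl1, Fosl2, Jun, Junb and Jund encode the Fos and Jun subunits of the transcription factor AP-1, and Egr1, Ier3 and Phlda1 are further genes that growth signals switch on within minutes. These 10 genes were chosen by name, with earlier results of these data known. They were located by gene identifier, 10 of the 20432 genes in the deposited table. Their mRNA was measured in 6 lines of mouse pancreatic ductal adenocarcinoma cells, numbered 52205, 52419, 52424, 53105, 53369 and 53371. Each line gave a Cre culture, labelled as JAK1 knockout, and a parental culture, labelled wild type. Cre cultures came from infection with a pBabe retrovirus that carries Cre recombinase and puromycin resistance, followed by rising puromycin at 2, 4 and 7 µg/ml. Parental cultures are the same lines without that step, so effects of JAK1 loss, of infection, of drug selection and of longer culture cannot be told apart. All cultures grew in the same serum-containing medium and no stimulus was named. Whether a Cre culture is a clone or a pool, which exons of Jak1 are removed and how long before harvest the medium was changed are not given in the sources used here.

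Each line and condition has 1 library, with 11.5 to 18.04 M reads in genes. Levels are the authors' normalised counts per 1e+06 reads (CPM), and changes are Cre minus parental on the log2(CPM + 0.5) scale, tested by limma with the line as a block. Jak1 mRNA averaged 168 ± 44.2 CPM in Cre and 170.3 ± 26.7 CPM in parental libraries (SD, n = 6 each), which checks nothing about a deletion of single exons. Epithelial identity differed between lines: Cdh1, the epithelial cadherin, was at 0.615 CPM in Cre and 0.372 CPM in parental 52419, against 425 CPM in Cre and 396 CPM in parental 53371. The 8 epithelial markers summed to 211 to 13101 CPM in Cre and 272 to 12654 CPM in parental libraries. The 6 leukocyte markers searched for summed to 0.475 to 3.71 CPM in Cre and 0.114 to 4.99 CPM in parental libraries, and 0 of the 6 passed the filter on low values. The 6 fibroblast markers searched for, of which 5 were in the table and 3 were tested, summed to 4.06 to 1181 CPM in Cre and 2.07 to 2013 CPM in parental libraries. All 7 proliferation markers had estimates above 0, as had 49.9% of all genes, with a median of 0.71, or 0.35 without line 53371. They summed to 1116 to 2531 CPM in Cre and 286 to 2009 CPM in parental libraries. At an unadjusted limma p under 0.05, 4 of the 7 were higher, against 6.96% of all genes, and 0 were lower, against 8.18%. Higher in 6 of 6 pairs were 3 of the 7, against 4.11% of all genes. Mki67, the Ki-67 antigen, was at 249 CPM in Cre and 25.8 CPM in parental 53371 and at 235 CPM in Cre and 104 CPM in parental 52424. It had no common direction, with differences of -0.29 in 52205, -0.03 in 53105, 0.02 in 53369 and 0.29 in 52419, and its estimate was 0.73, or 0.23 without line 53371. In bulk RNA, fewer cells of a kind and less RNA per cell cannot be told apart.

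AP-1 is a dimer of basic leucine zipper proteins. Jun proteins can pair with each other or with Fos proteins, whereas Fos proteins need a Jun partner, and the dimer binds DNA at the sequence TGANTCA. In resting cells immediate-early mRNAs are scarce and short-lived. ERK signalling through ternary complex factors and SRF, cytokine signalling through STAT3 and inflammatory signalling through NF-kB are known to induce various members.

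The start regions of Fos, Jun, Junb and Ier3 are shown because these were 4 of the 5 members with the lowest estimates in Cre cells. The fifth, Egr1, is named only. RefSeq windows of the GRCm38.p6 build, 250 bases before to 50 after the annotated start, matched 7 of the 10 members. The printed stretches run from -150 to 30 relative to the start, in the direction of transcription, and capitals mark motif matches. They are chr12:85473740-85473919 on the plus strand for Fos, chr4:95052193-95052372 on the minus strand for Jun, chr8:84978719-84978898 on the minus strand for Junb and chr17:35821563-35821742 on the plus strand for Ier3.
Fos: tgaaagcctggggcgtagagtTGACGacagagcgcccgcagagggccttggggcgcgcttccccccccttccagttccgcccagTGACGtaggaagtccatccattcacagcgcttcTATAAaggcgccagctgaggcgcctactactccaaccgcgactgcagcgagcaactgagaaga
Jun: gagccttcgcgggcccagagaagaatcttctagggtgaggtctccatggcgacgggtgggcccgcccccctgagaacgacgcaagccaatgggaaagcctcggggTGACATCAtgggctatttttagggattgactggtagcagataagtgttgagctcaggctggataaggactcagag
Junb: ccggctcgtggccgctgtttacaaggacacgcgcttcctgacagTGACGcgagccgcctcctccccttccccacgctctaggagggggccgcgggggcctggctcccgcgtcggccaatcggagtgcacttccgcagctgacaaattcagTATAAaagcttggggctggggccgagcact
Ier3: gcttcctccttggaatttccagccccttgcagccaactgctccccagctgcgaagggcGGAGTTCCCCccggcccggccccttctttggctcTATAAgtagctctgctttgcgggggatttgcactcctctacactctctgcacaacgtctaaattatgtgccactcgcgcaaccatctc
In Fos the capitals are the cAMP-response core TGACG at -129 and -66 and a TATAA at -33. Jun has TGACATCA at -45, Junb has TGACG at -106 and TATAA at 1, and Ier3 has a match to the NF-kB motif, GGAGTTCCCC, at -92 and a TATAA at -58. The motifs were searched on both strands of the whole window, except TATAA, which was searched on the transcribed direction only. The core TGACG, which is part of the full site TGACGTCA, was in 3 of the 7 members (Fos, Fosb and Junb) and in 20.8% of all 32851 windows. The NF-kB motif was in 4 of 7 (Fos, Fosb, Fosl2 and Ier3) and in 11.2% of windows, and the EGR motif GCGGGGGCG in 2 of 7 (Fosb and Fosl2) and in 2.91%. TATAA was in 3 of 7 and in 17.5% of windows, and TGACATCA in 1 of 7 and in 3.62%. The AP-1 motif TGANTCA, the STAT motif TTCNNNGAA, the full site TGACGTCA and the CArG box, the SRF motif, were in 0 of the 7 windows, against 7.81%, 8.3%, 1.79% and 1.63% of all windows. Sites more than 250 bases before the start, and members without a window, were not searched, so these counts do not show that a gene lacks such a site. The window of Jund had 46.7% G and C bases, against 54.0% to 68.3% in the other 6 and a median of 52.7% over all windows. The shares of all windows given above were not matched for G and C bases. Whether the annotated start of Jund is the one used in these cells is not known, so counts over 7 windows include at least 1 doubtful one. The starts of the other members were not checked in these cells either. All positions given, among them the TATAA at 1 in Junb and at -58 in Ier3, are relative to the annotated start. TATAA and TGACATCA were added to the search after the sequences had been read. A match describes the letters in these windows and not binding.

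Across the 6 pairs, mRNA of Ier3, Egr1, Jun and Junb was lower in Cre than in parental cells in 5 or 6 pairs. The same held for 17.8% of all genes. For Junb these include differences of only -0.09 in 52205, -0.08 in 52419 and -0.07 in 53369. Fos, with an estimate of -0.57, and Fosb, with -0.26, were lower in 4 pairs. Fosl1, Fosl2, Jund and Phlda1 had estimates close to 0. None of the 10 passed the test. Limma with Benjamini-Hochberg adjustment over 12734 genes called 0 of the 10 members lower or higher, where it called 0.0236% of all genes lower and 0% higher. The members were chosen with earlier results of these data known, so counts set against all genes describe the list and do not test it. At an unadjusted limma p under 0.05, 4 members were lower, against 8.18% of all genes, and 0 were higher, against 6.96%. Estimates lay below 0 for 8 of 10 members and for 50.1% of all genes, and above 0 for 2 members and 49.9%, and the median estimate was -0.29 for the members and -0.00 for all genes. With a pair left out in turn, 7 to 9 members lay below 0, and their median was -0.18 without line 52424. On the read counts recovered from the deposited values, edgeR called 0 members lower (0.0393% of all genes) and 0 higher, and DESeq2 called 2 members lower, Ier3 and Egr1 (1.63% of all genes), and 0 higher (0.487%). In 0 of 10 members did the Cre and parental levels fail to overlap, against 0.055% of all genes that lay wholly lower in Cre cells. All 10 members passed the filter on low values, and each was at 48 reads or more in every library.

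**Figure D1:**
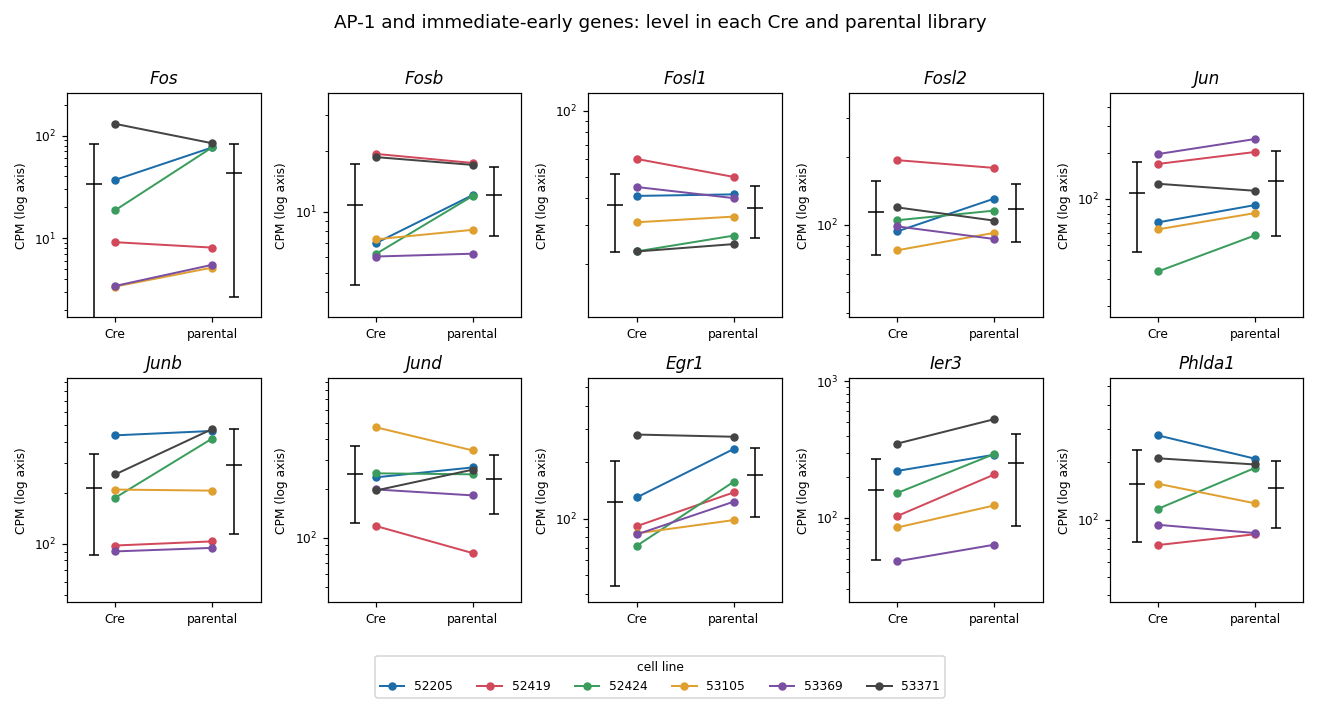
Level of each of the 10 genes in CPM (log axis) in the Cre library (left) and the parental library (right) of 6 lines, joined by line, with the mean and SD of each group beside the points; the lower SD bar of Fos in Cre cells reaches below the axis. Ier3 sits lower in the Cre library in 6 of 6 lines, and for each gene the Cre and parental groups overlap.

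Ier3 and Egr1 had the smallest p-values of the 10. Ier3, a small protein induced by stress and growth factors that acts on cell survival, lies on chromosome 17 from 35821713 to 35822911 (RefSeq on GRCm38, as for each gene). Its lowest, median and highest levels were 48.1, 127.7 and 349 CPM in Cre libraries, against 63.6, 248.5 and 527 CPM in parental libraries. Line 53369 was lowest and line 53371 highest in both groups, and the groups overlapped although each Cre library was below its own parental library. Ier3 averaged 159.8 ± 110.4 CPM in Cre cells and 251 ± 163 CPM in parental cells (SD, n = 6 each), and the estimated fold was 0.640. The log2 change was -0.64 (SE 0.10, 95% confidence interval -0.87 to -0.42), with limma adjusted p = 0.0997 (Benjamini-Hochberg). It was lower in 6 of 6 pairs, as were 4.56% of all genes, with a fold between 0.499 in line 52419 and 0.762 in line 52205. The members higher in 6 of 6 pairs numbered 0, against 4.11% of all genes. The exact sign-flip permutation test over the 6 pairs gave p = 0.0313 (2-sided), the smallest it can give. The adjusted p was 2.01e-05 by DESeq2, 0.106 by edgeR and 0.0437 by limma with library weights, a setting that called 0.259% of all genes lower and 0.00785% higher.

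Egr1, a zinc-finger transcription factor of the growth-factor response, lies on chromosome 18 from 34861207 to 34864956. From lowest over median to highest, it was at 71.7, 87.4 and 281 CPM in Cre libraries, against 98.4, 147.7 and 273 CPM in parental libraries. In 5 lines the Cre library was lower, and 5 of the 6 Cre libraries were at or below 129.9 CPM. Line 53371 was highest in both groups and showed no decrease, with 281 CPM in Cre and 273 CPM in parental cells. The log2 change was -0.56 (SE 0.14, 95% confidence interval -0.87 to -0.25), with limma adjusted p = 0.185, edgeR adjusted p = 0.211 and DESeq2 adjusted p = 0.0236 (Benjamini-Hochberg). Lower values in at least 5 of 6 pairs were seen for 4 members, Ier3, Egr1, Jun and Junb, and for 17.8% of all genes. The exact sign-flip permutation p of Egr1 was 0.0625 (2-sided, 6 pairs).

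Phlda1, a pleckstrin-homology-like protein known as an ERK-induced gene, lies on chromosome 10 from 111506286 to 111508649 and had no common direction. Levels had a minimum, median and maximum of 73.5, 134.0 and 276 CPM in Cre libraries, against 83.8, 154 and 208 CPM in parental libraries. It was higher in Cre cells in 4 lines, most in 52205 with a difference of 0.41, and it was lower in 52419 at -0.19 and in 52424 at -0.71. The log2 change was 0.02 (SE 0.14, 95% confidence interval -0.29 to 0.32, limma adjusted p = 0.969, Benjamini-Hochberg), and it was between -0.06 and 0.16 with each pair left out in turn.

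**Figure D2:**
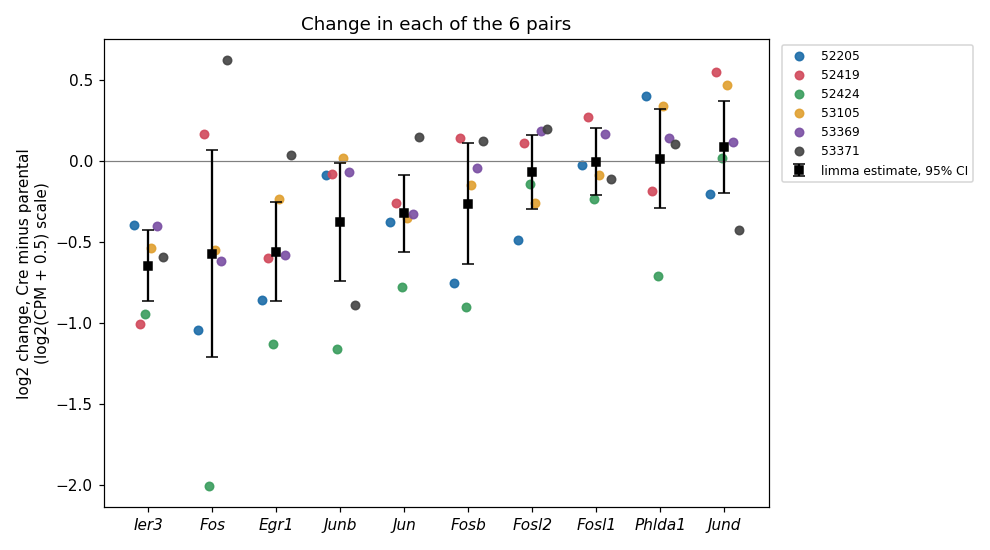
Log2 change of each gene, Cre minus parental on the log2(CPM + 0.5) scale, in each of 6 lines (coloured points) with the limma estimate and its 95% confidence interval (black), genes in order of the estimate. All 6 points of Ier3 lie below 0, while those of Fos run from -1.04 in 52205 and a still lower value in 52424 to 0.62 in line 53371.

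Among the Jun subunits, Jun and Junb were lower in 5 of 6 pairs and Jund was not. Jun, the subunit that gives the family its name, lies on chromosome 4 from 95049036 to 95052222. Its lowest, median and highest levels were 33.6, 97.9 and 197 CPM in Cre libraries, against 57.8, 102 and 246 CPM in parental libraries. Lines 52419 and 53369 were the highest and 52424 the lowest in both groups. The 5 lower pairs had differences from -0.77 in line 52424 to -0.26 in line 52419, and line 53371 was at 0.15. The log2 change of Jun was -0.32 (SE 0.11, 95% confidence interval -0.56 to -0.08, limma adjusted p = 0.258, Benjamini-Hochberg), and the exact sign-flip permutation p was 0.0625 (6 pairs).

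Junb, a subunit that is also a target of STAT3, lies on chromosome 8 from 84976909 to 84978748. The lowest, median and highest Junb levels were 90.3, 198 and 437 CPM in Cre libraries, against 94.7, 312 and 476 CPM in parental libraries. In 2 lines the difference was large. Junb was at 187 CPM in Cre and 418 CPM in parental 52424, a difference of -1.16, and at 257 CPM in Cre and 476 CPM in parental 53371, a difference of -0.89. The other 4 lines lay between -0.09 and 0.02. These are the 2 lines in which Mki67 was higher in the Cre library by over 1 on the log2 scale (1.17 in 52424 and 3.24 in 53371), and the part of proliferation in the difference was not tested. The log2 change was -0.38 (SE 0.16, limma adjusted p = 0.321, Benjamini-Hochberg), and -0.22 without line 52424.

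Jund, a subunit that is expressed in resting cells and induced less than its relatives, lies on chromosome 8 from 70697739 to 70700616. With a minimum, median and maximum of 118, 216 and 473 CPM in Cre libraries, against 80.6, 253 and 342 CPM in parental libraries, its groups overlapped widely. It was higher in Cre cells in 4 lines, by 0.55 in 52419 and 0.47 in 53105 at most, and lower in 53371 at -0.42 and in 52205 at -0.20. The log2 change was 0.09 (SE 0.13, 95% confidence interval -0.19 to 0.37, limma adjusted p = 0.761, Benjamini-Hochberg), and -0.0025 without line 52419. In line 53371 Junb and Jund were thus both lower in Cre cells, whereas in 52424 Junb was lower and Jund was at 0.02.

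The Fos subunits differed from each other. Fos, the founding subunit, lies on chromosome 12 from 85473890 to 85477274. Its lowest, median and highest levels were 3.38, 14.0 and 130.0 CPM in Cre libraries, against 5.17, 42.4 and 84.2 CPM in parental libraries. The highest library was 38.4 times the lowest in Cre cells and 16.3 times in parental cells, the widest spread of the 10 genes in each group. The lines fell into 2 sets. Fos was at 18.8 CPM in Cre and 76.8 CPM in parental 52424, a fold of 0.249. It was at 37.0 CPM in Cre and 76.7 CPM in parental 52205, a fold of 0.486, and at 130.0 CPM in Cre and 84.2 CPM in parental 53371, a fold of 1.54. These 3 lines had high Fos in the parental library, and in Cre cells they parted, with the level higher in 53371 alone. The other 3 lines had at most 9.14 CPM in Cre and 8.10 CPM in parental libraries, with differences of -0.61 in 53369, -0.55 in 53105 and 0.17 in 52419. The log2 change over the 6 pairs was -0.57 (SE 0.29, 95% confidence interval -1.21 to 0.07, limma adjusted p = 0.375, Benjamini-Hochberg). It was -0.28 without line 52424 and -0.81 without line 53371, and the exact sign-flip permutation p was 0.25 (6 pairs).

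Fosb, a subunit best known from neurons, lies on chromosome 7 from 19302696 to 19310118. Across the lines it had a minimum, median and maximum of 6.0, 7.14 and 19.3 CPM in Cre libraries, against 6.20, 12.03 and 17.4 CPM in parental libraries. As with Fos, Fosb was lower in Cre 52424 (-0.90) and Cre 52205 (-0.75), and the other 4 lines lay between -0.15 and 0.15. The log2 change was -0.26 (SE 0.17, limma adjusted p = 0.476, Benjamini-Hochberg), and -0.13 without line 52424 and -0.16 without 52205.

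Fosl1 and Fosl2, the Fra-1 and Fra-2 subunits that lack the strong activation domain of Fos, had no common direction. Fosl1 lies on chromosome 19 from 5447698 to 5455938, and its lowest, median and highest levels were 22.7, 35.8 and 60.2 CPM in Cre libraries, against 24.6, 36.3 and 49.8 CPM in parental libraries. Its log2 change was -0.00 (SE 0.09, 95% confidence interval -0.21 to 0.20, limma adjusted p = 0.994, Benjamini-Hochberg). Line 52419 was highest in both groups, and the differences of the 6 lines ran from -0.23 to 0.27. Fosl2 lies on chromosome 5 from 32136472 to 32157840, and its lowest, median and highest levels were 76.8, 101 and 194 CPM in Cre libraries, against 86.2, 109.9 and 179 CPM in parental libraries. Its log2 change was -0.06 (SE 0.10, 95% confidence interval -0.29 to 0.16, limma adjusted p = 0.786, Benjamini-Hochberg), with 3 lines lower and 3 higher. Line 52205 was the lowest of these at -0.49.

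Levels of different genes were set side by side per kilobase of the longest coding transcript in GENCODE. On this scale the Fos-family mRNA of a library was made up in different ways by line. Fos held 63.5% of the Fos-family CPM per kilobase in Cre 53371 and 54.3% in parental 53371, 31.6% in Cre 52205 and 44.5% in parental 52205, and 23.0% in Cre 52424 and 50.8% in parental 52424. In lines 52419, 53105 and 53369 the share of Fos was 3.85% to 6.07% in Cre and 6.14% to 6.77% in parental libraries, and Fosl1 and Fosl2 made up most of the family. Fos was the leading Fos-family mRNA in 1 Cre library (53371) and in 3 parental libraries (52205, 52424 and 53371). Fosl1 led in 4 Cre and 2 parental libraries, and Fosl2 in Cre 52424 and parental 52419, where the length of the merged exons gives the lead to Fosl1 instead. Fosb never led and held 3.33% to 7.14% in Cre and 3.91% to 7.34% in parental libraries.

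In the Jun family Jund led, per kilobase, in 4 Cre libraries (52419, 52424, 53105 and 53369) and 2 parental libraries (53105 and 53369). Junb led in Cre 52205 and 53371 and in parental 52205, 52424 and 53371, and Jun led in parental 52419. By merged exons Jund instead of Junb leads in Cre 53371. The share of Junb was 39.4% in Cre and 58.4% in parental 52424, and 47.6% in Cre and 57.8% in parental 53371. Jun held 29.8% in Cre and 37.6% in parental 52419, and 26.8% in Cre and 32.4% in parental 53369, against 4.01% to 13.2% in the other Cre libraries and 4.58% to 7.79% in the other parental libraries. The lines 52419 and 53369 are also those with the lowest Cdh1, at 0.615 CPM in Cre and 0.372 CPM in parental 52419 and at 36.4 CPM in Cre and 17.5 CPM in parental 53369. Whether Jun and Cdh1 are linked was not tested.

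**Figure D3:**
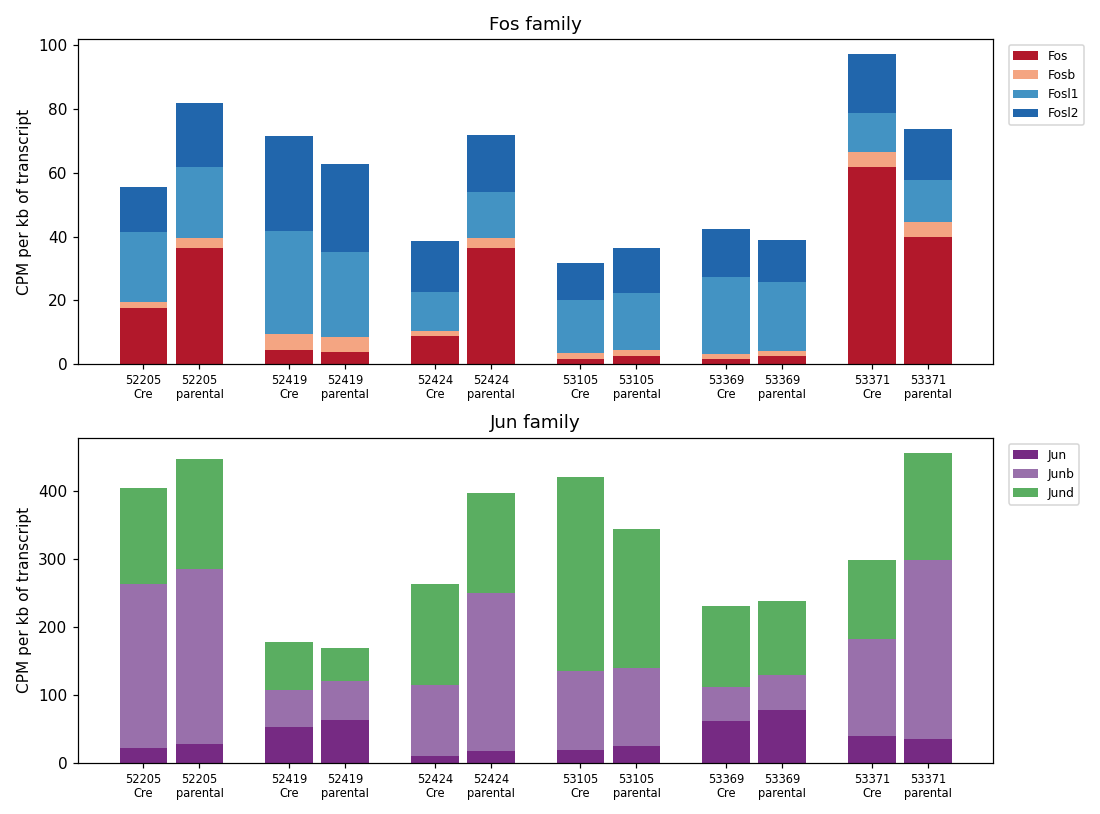
Stacked CPM per kilobase of transcript of the Fos family (top) and Jun family (bottom) in each library, with the Cre library left of the parental library of the same line. Fos fills most of the Fos-family bar in both 53371 libraries and in parental 52424, and Jund fills most of the Jun-family bar in both 53105 libraries.

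All 10 members differed between lines. In the same fit, limma's moderated F test across the 6 lines called 10 of 10 members at adjusted p under 0.05 (Benjamini-Hochberg), against 71.1% of all genes, so a call here is common. The F of the members ran from 9.41 for Fosb to 73.0 for Ier3, and the median F of all genes was 6.79. The adjusted p by limma ran from 7.12e-06 for Ier3 to 0.00468 for Fosb. Ier3 thus had the smallest p of the 10 both between Cre and parental cells and between lines. Per kilobase Ier3 ran from 42.6 to 309 CPM in Cre and from 56.3 to 466 CPM in parental libraries, and Fosb from 1.59 to 5.10 CPM in Cre and from 1.64 to 4.60 CPM in parental libraries.

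Line by line, with 1 library on each side and therefore no test, the members differed most between Cre and parental cells in 52424. In that line 7 of 10 members were lower in Cre cells by over 1.5-fold, against 10.2% of all genes, and 0 were higher, against 8.84%. The median of the members was -0.84 in 52424, -0.38 in 52205, -0.19 in 53105, -0.06 in 53369, 0.02 in 52419 and 0.07 in 53371. Past 1.5-fold, 3 members were lower in 52205 (10.4% of all genes), 2 in 52419 (7.15%), 2 in 53371 (10.6%), 1 in 53369 (3.45%) and 0 in 53105 (3.4%). Higher by over 1.5-fold was 1 member in 53371, Fos, where 10.3% of all genes were, and 0 members in 52205 (5.02% of all genes), 52419 (2.82%), 53105 (5.3%) and 53369 (3.1%). The lowest member was Fos in 52205, 52424, 53105 and 53369, Ier3 in 52419 and Junb in 53371. Socs3, the STAT3-induced inhibitor of JAK signalling, was lower in all 6 lines, from -1.37 in 52419 to -0.20 in 53371.

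Levels of some members went together over the 12 libraries, which are 6 pairs that share a line and are therefore not independent points. Pearson's r of the log2 levels was 0.93 for Junb and Phlda1, 0.90 for Fos and Ier3, and 0.82 for Fos and Egr1, while Jund and Fosl2 had r = -0.80. Over the 6 changes, Cre minus parental, r was 0.71, 0.08, 0.86 and 0.02 for the same gene pairs in that order. Fos and Jun had r = -0.29 for levels and 0.94 for changes, the highest r of changes among all pairs of members. The gene pairs before it were picked for the highest r of levels and for the lowest. Among all other tested genes the levels most like those of Fos were of Csf2, the cytokine GM-CSF (r = 0.98), and Spns3 (0.96). Those most like Jun were of Rbms3, an RNA-binding protein (0.98), and Mmp2, the gelatinase A (0.96), and those most like Junb were of Nfe2l3 (0.97) and Gdf15 (0.97). For Ier3 they were of Atg9b (0.96) and Zfp36, an mRNA decay factor that is itself immediate-early (0.95), and for Egr1 of Akap7 (0.94) and Slc2a8 (0.89). Fosb was most like Rbm48 (0.89) and Pvr (0.89), Fosl1 like Veph1 (0.92) and Appl1 (0.92), and Fosl2 like Lrrc8d (0.95) and Rab28 (0.94). Jund was most like Ddx19a (0.96) and Irak4 (0.95), and Phlda1 like Mplkip (0.97) and Ephx2 (0.96). Each of these genes was picked for having one of the 2 highest r among the 12480 other tested genes with a symbol. Some are near the floor, where r is less sure. The lowest level was 0.0569 CPM for Spns3, in a parental library, and 0.0714 CPM for Nfe2l3, in a Cre library. Veph1 ran from 0.845 to 1.92 CPM in Cre and from 0.709 to 1.65 CPM in parental libraries.

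Other genes of the same pathway were counted in lists, chosen like the members with earlier results of these data known. Each list was read against all genes, of which 50.1% had an estimate below 0. At an unadjusted limma p under 0.05, 8.18% of all genes were lower and 6.96% higher. Kinases and SRF partners upstream of immediate-early genes had a median of -0.04 over 25 genes, 17 of them below 0, 2 lower and 2 higher at an unadjusted limma p under 0.05. Their smallest p values belonged to Elk3, a ternary complex factor, at -0.23, the p38 kinase Mapk14 at 0.30 and ERK1, Mapk3, at -0.20. Other immediate-early genes had a median of -0.05 over 31 tested genes, 20 of them below 0, 7 lower and 2 higher. Their median was 0.0084 without line 52205. The smallest p values of this list belonged to Ier5l at -0.47, Egr3, a relative of Egr1, at -0.62 and Plk3, a stress-induced polo kinase, at -0.49. These were among 6 of the 31 genes that were lower in 6 of 6 pairs, against 4.56% of all genes. Higher in 6 of 6 was 1 of the 31, against 4.11% of all genes. AP-1 partners and other leucine zipper factors had a median of -0.09 over 11 tested genes, 7 of them below 0, with 0 lower or higher. Among these the smallest p values belonged to Mafg at -0.12, Maff at -0.13 and Atf7 at -0.14. Limma with Benjamini-Hochberg adjustment and edgeR called 0 genes of these 3 lists. DESeq2 called 1 lower, Ier5l of the 31 other immediate-early genes, where it called 1.63% of all genes lower and 0.487% higher.

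Genes known as outputs of the pathway had medians further below 0. Of 14 genes of ERK feedback and output, 13 had estimates below 0, with a median of -0.18 (-0.11 without line 52419), 6 lower and 1 higher at an unadjusted limma p under 0.05. Spred3, an inhibitor of ERK signalling, averaged 24.0 ± 9.3 CPM in Cre and 34.3 ± 12.3 CPM in parental cells (SD, n = 6 each), a log2 change of -0.51. Spry4, a feedback inhibitor of receptor kinases, was at -0.46 and Etv1, an ETS factor, at -0.57. These 3 genes are named for the smallest p values of the list. They were its 3 genes lower in 6 of 6 pairs, as were 4.56% of all genes, and 0 of the list were higher in 6 of 6. Of 20 tested AP-1 target genes 18 had estimates below 0, with a median of -0.33, 10 lower and 0 higher. Mmp10, the protease stromelysin 2, averaged 2.47 ± 2.79 CPM in Cre and 9.04 ± 9.92 CPM in parental cells, a log2 change of -1.48. The collagenase Mmp13 was at -0.87 and the integrin subunit Itgb4 at -0.85. These 3 too are named for the smallest p values of their list. They were among its 6 genes lower in 6 of 6 pairs, and 0 of the list were higher in 6 of 6. For the 2 proteases, 6 of 6 includes levels of a few reads, where a difference says little. The lowest levels of Mmp13 were 0.0714 CPM in Cre and 0.306 CPM in parental libraries, and those of Mmp10 were 0.214 CPM and 0.382 CPM. Limma and edgeR called 0 genes of either list, while DESeq2 called 2 lower in the first and 6 lower in the second. Of all genes DESeq2 called 1.63% lower and 0.487% higher. By limma the adjusted p of the 6 named genes ran from 0.137 for Mmp10 to 0.185 for Spry4 and Etv1 (Benjamini-Hochberg). In the list of JAK1-STAT3 output, 7 of 8 genes had estimates below 0, with a median of -0.60, 6 lower and 0 higher at an unadjusted limma p under 0.05. The smallest p values belonged to the receptor gene Osmr, the transcription factor gene Cebpd and Stat3, which was at -0.55 and lower in 6 of 6 pairs. DESeq2 called 4 genes of this list lower and edgeR 2. Limma called 2 of the 8 lower, Osmr and Cebpd. Both calls were lost with no filter on low genes, without the line as block and without line 52419, 52424 or 53369, and that of Cebpd also without 53105 or 53371 and in limma without trend, with limma adjusted p of up to 0.138 (Benjamini-Hochberg) over the pairs left out.

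**Figure D4:**
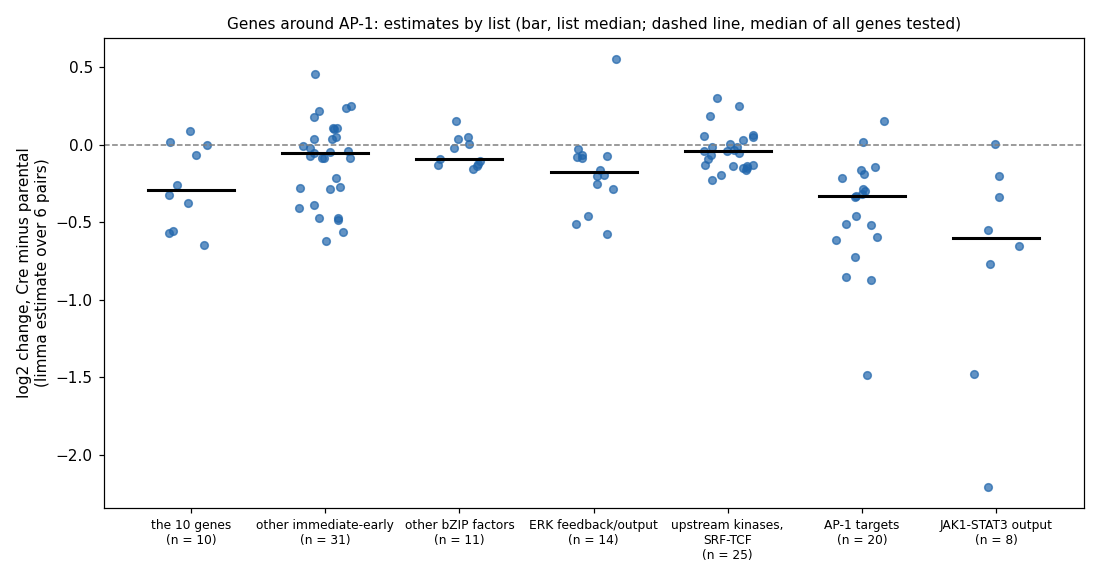
Limma estimate of each tested gene, Cre minus parental on the log2(CPM + 0.5) scale, by list, with the list median as a bar and the median of all genes as a dashed line. The medians are -0.29 for the 10 genes, -0.33 for AP-1 target genes, -0.18 for ERK feedback and output, -0.60 for JAK1-STAT3 output and between -0.09 and -0.04 for the other 3 lists.

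Counts of some members can be raised or lowered by an overlapping gene on the other strand, since no strand-marking step is named in the library protocol. How shared reads were assigned was not checked, and per-kilobase shares carry the same limit. In the GENCODE annotation whole gene spans were compared, introns included. Fosl1 overlaps Ccdc85b by 2767 bases, more than its 2033 bases of merged exons, and Phlda1 overlaps Gm28592 by 1088. Jund overlaps Gm11175 by 919, Jun overlaps Junos by 689 and Junb overlaps Prdx2 by 351. How many of these bases lie in exons was not counted. Fos, Fosb, Fosl2, Egr1 and Ier3 have no such overlap in the annotation used.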

How the data were processed

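Per the labels' protocols, poly(A) RNA was captured with oligo(dT) beads and copied with random hexamers. Builds GRCm38 and mm10 and the tools featureCounts, edgeR and FastQC 0.11.9 are named in the submitters' processing notes, without an aligner. Values of the main table the authors deposited are a signal, read counts divided by a scaled library size (CPM). In each library 100% of values were whole multiples of 1 read within 0.01, so counts were recovered, and 1 read was worth 0.0569 to 0.0896 CPM. The deposited log2 table holds 10903 of these genes and served as an alternative.

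Genes at 1 CPM or more of the column total in at least 6 libraries were fitted as log2(CPM + 0.5) by limma-trend (limma 3.58.1, R 4.3.3) with line as block. Benjamini-Hochberg adjustment ran over 12734 genes, 2-sided, with calls under 0.05. The scale understates changes of low genes. Line pairs come from the labels, and deviations from group means correlated within a line at 0.73 to 0.95, above any other line (at most 0.66). With 1 library per line and condition, p-values measure how alike lines changed. edgeR 4.0.16 and DESeq2 1.42.0 ran on the recovered counts. Other alternatives were pseudocounts, filters, scalings, no block, variance settings and each pair left out. The main test was tested on simulated data.

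Members and lists were chosen with earlier results of these data known. Besides the members, the text names 3 genes with the smallest p per list of pathway genes, the 2 genes most alike to each member, Jak1, Cdh1, Mki67 and Socs3. Unnamed identifiers were passed over among the most alike. Symbols and coordinates are from RefSeq (GRCm38), lengths and overlaps from GENCODE, and figures from matplotlib 3.10.9.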

Additional observations from a re-analysis of the deposited data

How the results depend on the processing

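The count of genes called by limma, 3, was 0 with no filter on low genes, 0 with no replicate block (line not fitted), 34 with library weights, 5 by edgeR's quasi-likelihood test and 270 by DESeq2, and between 0 and 5 with a pair left out: 5 if that was 52205, 2 if 53371, 1 if 53105 and 0 otherwise. Library weights called 1 member, Ier3, and DESeq2 called 2, Ier3 and Egr1. The other settings called 0. Members lower at an unadjusted p under 0.05 numbered 4, but 0 with no replicate block and 3 to 5 with a pair left out. Ier3, Egr1, Jun, Junb, Fos and Fosb stayed below 0 in every setting run. Estimates near 0 changed sign. Fosl1 was at 0.0038 with upper-quartile scaling, 0.078 with library weights and -0.057 to 0.044 with a pair left out. Fosl2 was at 0.027 with library weights and -0.12 to 0.019 with a pair left out, Jund at -0.0025 to 0.19 and Phlda1 at -0.062 to 0.16. The cause of these moves was not tested. Members called between lines numbered 9 or 10 and genes 6499 to 9379 with a pair left out.
The comparison rests on 6 pairs, and the exact test cannot go below p = 0.0313. A single unstimulated harvest per culture gives no time course, and mRNA levels say nothing of AP-1 protein or its phosphorylation. Per-kilobase shares depend on the transcript length, and the merged-exon length was chosen as an alternative after seeing the data.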
